A study of Mus musculus with 4 samples.

Results

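The Calb2 dorsal mature neurons are the olfactory sensory neurons (OSNs) that the deposited cell table places in the cluster named Calb2+ D. in a clustering made without the olfactory receptor genes. They numbered 477 of the 9539 clustered mature OSNs, with 154, 107, 90 and 126 neurons in mice 1 to 4. The reference throughout was the plain Dorsal cluster, with 1482 neurons (448, 317, 305 and 412). Because the clusters were made from the non-receptor genes of these same neurons, a difference in those genes between both clusters is described here and carries no test. Receptor identity was not used in the clustering, and immature neurons did not enter it, so tests are given for those measurements.

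The cells came from the main olfactory epithelium of 4 male C57BL/6 mice aged 8 weeks, which received no treatment or odorant and formed 1 group. Live nucleated cells were sorted and profiled by droplet-based 3′ RNA-seq with 1 library per mouse, so the mouse was the replicate (n = 4) and no cell was counted as one. In this method a unique molecular identifier (UMI) marks each captured transcript, and amplified copies are counted once. The libraries held 23157467 to 32382702 UMIs, and any pair of libraries shared 4 to 14 cell barcodes. Of the 477 neurons, 468 were also called Calb2+ D. in the authors' clustering with receptor genes, 8 were then in Dorsal and 1 in Ventral.

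Each mature OSN expresses 1 odorant receptor gene out of a very large family, and neurons sharing a receptor send their axons to the same glomeruli in the olfactory bulb. Odorant binding opens a cyclic-nucleotide-gated channel through a G protein and an adenylyl cyclase, and calcium then enters the cilia. Calb2 encodes calretinin, a soluble EF-hand protein that buffers calcium, and Nqo1 encodes a quinone reductase that marks the dorsal part of the epithelium. In these neurons the levels of S100a5 and of the adhesion proteins Kirrel2 and Kirrel3 are known to depend on neuronal activity.

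The cluster held 5.89%, 4.66%, 5.25% and 4.32% of the clustered mature OSNs of mice 1 to 4, a mean of 5.03% ± 0.689 (SD, n = 4). The 95% Wilson intervals, which cover counting error only, ran from 3.64% at the lowest bound to 6.86% at the highest. Among the neurons of the 5 dorsal clusters it made up 17.4% ± 1.15. Depth did not separate both clusters. The median UMI count per neuron was 5415.5, 4193, 6203.5 and 3583 in Calb2+ D. and 5229, 4202, 5972 and 3644.5 in Dorsal. The median mitochondrial share was 0.730% to 1.08% against 0.822% to 1.22%, and it was lower in Calb2+ D. in each mouse.

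Calb2 and Nqo1 were genes by which the authors named the cluster. Their levels therefore describe the label and do not test it. Calb2 stood at 30.1, 27.4, 27.7 and 31.1 UMIs per 10000 in Calb2+ D. of mice 1 to 4 and at 1.10, 0.978, 0.629 and 0.776 in Dorsal. Every Calb2+ D. value was therefore far above every Dorsal value, with means of 29.1 ± 1.83 and 0.871 ± 0.210. The ventral counterpart, the cluster Calb2+ V., had a mean of 26.2, whereas the dorsal cluster Dlg2+ D. had 0.0373. Nqo1 was present at 31.2, 39.4, 35.9 and 29.8 UMIs per 10000 in Calb2+ D. and at 22.6, 31.2, 26.7 and 20.2 in Dorsal. Those ranges overlapped, although each mouse had more in Calb2+ D. (mean log2 ratio 0.45 ± 0.09), and Calb2+ V. had 0.277. Acsm4, another dorsal marker, was at 5.87 to 7.01 against 4.76 to 5.51. The 6 measured genes of the dorsal list had a median log2 ratio of -0.227. The 2 measured genes of the 7 in the ventral list had 0.456, so the list medians did not follow these markers. The summed level of the dorsal list was 38.6 to 49.4 in Calb2+ D. and 28.8 to 39.6 in Dorsal. For the ventral list the sums were 0.830 to 1.27 and 0.748 to 1.25, with wide overlap.

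General markers of a mature OSN differed little between both clusters. Omp, the olfactory marker protein, was at 59.6 to 66.4 UMIs per 10000 in Calb2+ D. and 61.1 to 69.5 in Dorsal (mean log2 ratio -0.056). Gng13, a G-protein subunit of the cilia, had a mean log2 ratio of -0.01 ± 0.03, the channel subunit Cnga2 of 0.01 ± 0.06 and the adenylyl cyclase Adcy3 of -0.16 ± 0.06. The ventral marker Nfix stayed at 0.142 to 0.518 in Calb2+ D., against a mean of 5.25 in Calb2+ V. Summed markers of other cells of the tissue were low in both clusters: the 8 immune and blood genes reached at most 1.13 UMIs per 10000 in Calb2+ D. and 1.36 in Dorsal, and the 7 genes of sustentacular cells at most 0.253 and 0.215.

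Within the cluster, Calb2 was found in each of the 477 neurons. Its level per neuron had a median of 27.3 UMIs per 10000, a 10th percentile of 11.9 and a 90th percentile of 51.7, while 1232 of the 1482 Dorsal neurons (83.1%) had no Calb2 UMI. After thinning each cell to 3000 UMIs, 99.0% ± 0.977 of Calb2+ D. neurons held a Calb2 UMI, against 13.8% ± 1.11 of Dorsal neurons. Thinning left out 65 and 247 shallower neurons, and the unthinned shares were 100% and 16.9%. Microvillar cells of the type Mv2, taken as cells that should lack Calb2, gave 0.928% ± 0.369 after thinning, so the Dorsal share was above this background. The median UMI counts were 4747 in Calb2+ D., 4616 in Dorsal and 5081 in Mv2.

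Across the other non-receptor genes, a small set stood apart from Dorsal and most did not. A gene was called past the fold when the mean log2 ratio of its UMIs per 10000, after adding 0.05, was at least 1 in size with the same sign in 4 of 4 mice. Of 8097 genes with at least 100 UMIs over both clusters, 18 (0.222%) were past the fold upwards and 43 (0.531%) downwards, 61 in all (0.753%), and the median log2 ratio over all of them was -0.0039. The mouse values of both clusters did not overlap for 18 of the 18 and 41 of the 43, against 7.06% of all genes. The fold rule had chosen these genes by the same values, so their non-overlap is largely built in and adds no support. Rasl11a and Ptchd1 were the lower genes that overlapped, and they are named because they were the exceptions.

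**Figure D1:**
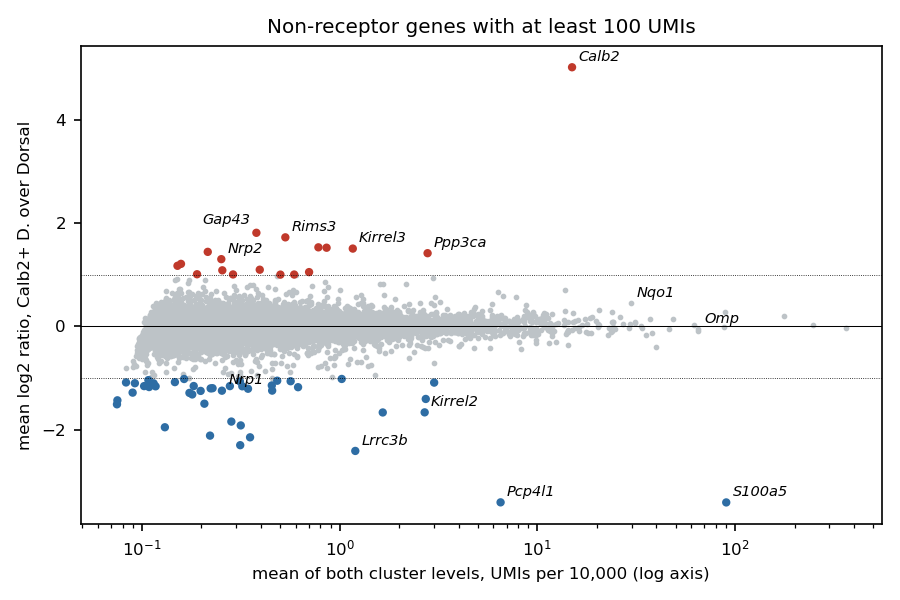
Mean log2 ratio of Calb2+ D. over Dorsal (vertical axis, UMIs per 10000 plus 0.05) against the mean level in both clusters (horizontal log axis) for 8097 non-receptor genes, with dotted lines at a log2 ratio of 1 and -1. Calb2 lies alone at 5.01, S100a5 and Pcp4l1 lie lowest at -3.40, and most genes lie near 0.

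A few calcium-binding proteins were past the fold, in both directions. Calb2 had a log2 ratio of 5.01 ± 0.33 (SD, n = 4), and S100a5, an EF-hand protein found mainly in olfactory neurons, was at 14.9, 19.4, 14.9 and 13.3 UMIs per 10000 in Calb2+ D. and at 167, 146, 178 and 168 in Dorsal. The S100a5 groups were far apart, with a log2 ratio of -3.40 ± 0.34. Among the 18 measured genes of the EF-hand list, 2 were past the fold upwards (Calb2 and Necab3) and 2 downwards (S100a5 and S100a6). The shares of all genes were 0.222% upwards and 0.531% downwards, and the list's median log2 ratio was -0.042. Necab3, a neuronal EF-hand protein, had a log2 ratio of 1.00 ± 0.36, just inside the limit, and 0.82 without mouse 4. S100a6 had -1.29 ± 0.87 at 0.0535 to 0.144 UMIs per 10000 in Calb2+ D. S100a3, at -1.51 ± 0.45, shares its strand and position with S100a2, so its reads are uncertain.

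The list of calmodulin-binding and kinase genes, with their relatives, gave 3 higher genes and 1 lower one among 17 measured (list median 0.009). Of all genes, 0.753% were past the fold in either direction. Ppp3ca, the catalytic subunit of the calcium-dependent phosphatase calcineurin, was at 4.77, 3.88, 3.34 and 4.33 UMIs per 10000 in Calb2+ D. and at 1.65, 1.53, 1.23 and 1.57 in Dorsal (log2 ratio 1.41 ± 0.08). Ppp3r1, the regulatory subunit of the same enzyme, was at 0.676 to 0.969 against 0.339 to 0.417 (log2 ratio 1.00 ± 0.12, and 0.94 without mouse 2), with part of its position shared with Wdr92 on the same strand. Gap43, a growth-associated protein that binds calmodulin, had a log2 ratio of 1.81 ± 0.65. It was at 0.853, 0.474, 0.411 and 0.718 in Calb2+ D. and at 0.203, 0.222, 0.0699 and 0.0847 in Dorsal. Pcp4l1, a small relative of a calmodulin regulator, went the other way. Its level was 1.03, 1.24, 1.09 and 0.951 in Calb2+ D. and 11, 9.96, 14.9 and 12.0 in Dorsal (log2 ratio -3.40 ± 0.33).

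**Figure D2:**
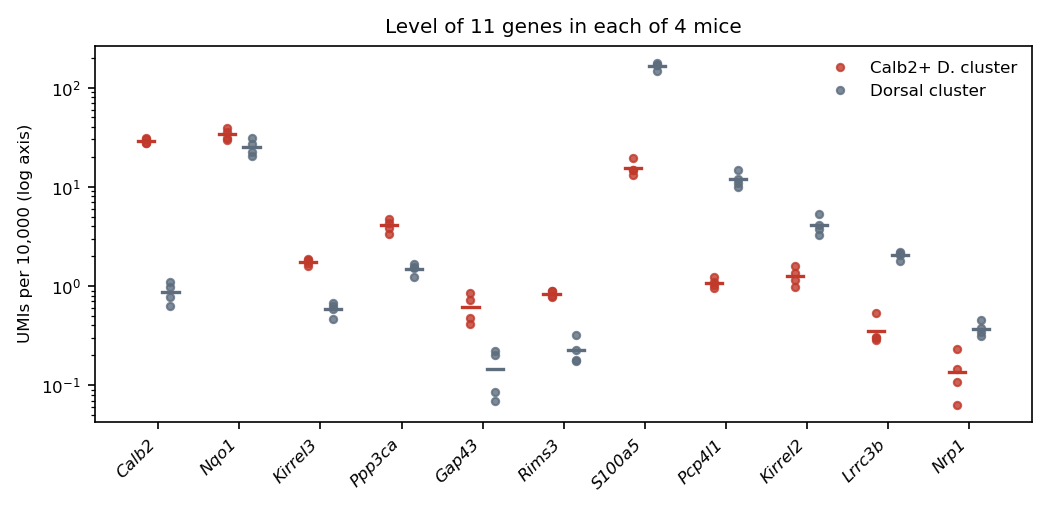
UMIs per 10000 (vertical log axis) of 11 genes in Calb2+ D. and Dorsal neurons, with 1 point per mouse and a line at the mean of 4 mice. The 4 mice of each cluster lie together for Calb2, S100a5 and Pcp4l1 and are separated from the other cluster, while Nqo1 overlaps between both clusters.

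Adhesion and guidance proteins, through which olfactory axons sort into glomeruli, showed opposed members of the same families. Kirrel3, an immunoglobulin-family protein that binds itself on other axons, was at 1.85, 1.84, 1.61 and 1.69 UMIs per 10000 in Calb2+ D. and at 0.583, 0.667, 0.635 and 0.463 in Dorsal (log2 ratio 1.50 ± 0.21). Its paralogue Kirrel2 was at 0.972, 1.34, 1.59 and 1.16 against 3.29, 3.78, 5.34 and 4.08 (log2 ratio -1.66 ± 0.14). Both pairs of ranges stood clear of each other, in opposite directions. The semaphorin receptors divided likewise. Nrp2 was higher (0.261 to 0.613 against 0.0667 to 0.158, log2 ratio 1.30 ± 0.67), and Nrp1 was lower (0.0634 to 0.232 against 0.311 to 0.450, log2 ratio -1.24 ± 0.72). Nrp2 came to 0.91 with receptor populations weighted equally and Nrp1 to -0.95 without mouse 4, both under the limit in size. Nrp1 was the 1 gene past the fold of the dorsal list, and Nrp2 that of the ventral list, against 0.753% of all genes.

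Of 27 measured genes in the axon guidance and adhesion list, 2 were past the fold upwards and 3 downwards, against 0.753% of all genes. The higher ones were Kirrel3 and Nrp2. The lower ones were Kirrel2, Nrp1 and the ephrin receptor Epha5 (-1.09 ± 0.31, and -0.96 without mouse 4). The list median was -0.039. Efna5, an ephrin, stayed under the limit at 0.83 ± 0.14, as did Epha7 at -0.99 ± 0.53. The axon guidance receptor Robo2 was at 2.35 to 2.64 against 1.65 to 2.15, a log2 ratio of 0.32 ± 0.12, and Plxna1 at -0.01 ± 0.14. Among 9 protocadherins and cadherins, Pcdh11x was higher (1.17 ± 0.27) and Pcdh8 lower (-1.15 ± 0.37), against the same 0.753%. Set against the other 4 dorsal clusters together instead of Dorsal alone, Pcdh11x had a ratio of -0.05.

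Ion channel genes past the fold were lower. Of 12 potassium channel genes, 0 were past the fold upwards and 3 downwards, against 0.222% and 0.531% of all genes. Kcnmb3, an accessory subunit of the large-conductance calcium-activated channel, was at 0.0619 to 0.161 UMIs per 10000 against 0.459 to 0.828 (log2 ratio -2.15 ± 0.16). Kcng1, a modifying subunit of voltage-gated channels, had -2.11 ± 0.38, and Kcnn2, a small-conductance calcium-activated channel, had -1.07 ± 0.36, and -0.93 without mouse 2. Of 14 genes for sodium, calcium and HCN channels, 0 were past the fold, which against 0.753% of all genes is no result about the list. The mouse values of both clusters did not overlap for 6 of the 14, against 7.06% of all genes, and the list's median log2 ratio was -0.033. Scn4b, an accessory sodium channel subunit outside that list, was at 0.415 to 0.866 against 0.997 to 1.62 (log2 ratio -1.02 ± 0.13).

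The remaining genes past the fold had varied roles. Rims3, an active-zone protein of the presynaptic terminal, was at 0.782 to 0.892 UMIs per 10000 in Calb2+ D. and 0.176 to 0.319 in Dorsal (log2 ratio 1.72 ± 0.26). Cotl1, an actin-binding protein, had a log2 ratio of 1.53 ± 0.41, the phosphoprotein gene Arpp21 1.21 ± 0.38, the malic enzyme Me1 1.10 ± 0.40, Lrrn2 1.08 ± 0.51 and the microtubule-associated Map4 1.01 ± 0.38. B830017H08Rik (1.52 ± 0.11), Gm17749 (1.44 ± 0.38), 4932412D23Rik (1.05 ± 0.16) and Gm3896 (1.00 ± 0.36) are loci without an assigned name. They complete the 18 higher genes. Without mouse 3, Me1 came to 0.98, Lrrn2 to 0.85 and Map4 to 0.82, all under the limit, and 4932412D23Rik came to 0.84 after thinning to 3000 UMIs. Gm3896, just past the limit, came to 0.95 with TMM normalization and 0.76 after thinning. Arpp21 was at 0.86 against the other 4 dorsal clusters together.

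Among the lower genes, Lrrc3b, a leucine-rich repeat membrane protein, was at 0.284 to 0.536 UMIs per 10000 against 1.79 to 2.22 (log2 ratio -2.41 ± 0.51). Syngr1, a synaptic vesicle protein, had -1.92 ± 0.18. Cyp26b1, the enzyme that degrades retinoic acid, was at 0 to 0.0422 against 0.170 to 0.281 (-1.95 ± 0.16). Ntf3, the neurotrophin-3 gene, had -1.43 ± 0.51 and was the 1 of 6 measured genes of secreted signals past the fold, against 0.753% of all genes. The ETS transcription factor gene Etv5 had -1.50 ± 0.12. Among the others with large ratios were Gm31557 (-2.30 ± 0.70), Ankrd33b (-1.84 ± 0.53) and 5730403I07Rik (-1.67 ± 0.35).

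Other functional groups had 0 genes past the fold, which for lists of this length is near the background of 0.753% and says nothing particular about them. They were the 21 measured genes of the transduction cascade (median log2 ratio -0.013), 31 transcription factors of olfactory neurons (-0.005), 23 presynaptic proteins and modulatory receptors (-0.124), 18 electron-transfer and detoxifying enzymes (0.006) and 14 immediate early and activity genes (-0.197). Smaller differences were present in some of their genes. The mouse values of both clusters did not overlap for 6 of the 21 cascade genes, 3 of the 31 transcription factors, 4 of the 23 presynaptic and modulatory genes, 4 of the 18 enzymes and 4 of the 14 activity genes, against 7.06% of all genes. For the transcription factors the count is near that share and is no result about the list. Fos was at 0.750 to 1.48 UMIs per 10000 in Calb2+ D. and 1.35 to 1.90 in Dorsal, and Egr1 at 0.1249 to 0.268 against 0.163 to 0.296, with overlap in both. Of 12 measured genes of immature neurons, Gap43 alone was past the fold, against 0.753% of all genes, and the list's median was 0.312. The mouse values of both clusters did not overlap for 6 of the 12, against 7.06% of all genes. The summed level of that list was 48.5 to 49.5 in Calb2+ D. and 41.9 to 44.3 in Dorsal, and the part of maturity in the other differences was not tested.

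The genes that set Calb2+ D. apart from Dorsal were set beside those of Calb2+ V. against the plain Ventral cluster, which uses other neurons of the same mice. There, 34 of 10397 genes were past the fold upwards and 115 downwards. The 14 upward genes in both comparisons were 77.8% of the dorsal and 41.2% of the ventral list, and the 33 downward genes were 76.7% and 28.7%. No gene was past the fold in opposite directions, and 18 of 18 higher and 43 of 43 lower dorsal genes had the same sign in the ventral comparison. Both Calb2 clusters came from the same clustering on non-receptor genes and were named for Calb2, so this agreement is partly built in. The share of all genes with the same sign in both comparisons was not computed. S100a5 was at a mean of 11.7 UMIs per 10000 in Calb2+ V. and 208 in Ventral, and Pcp4l1 at 0.449 and 15.8. The dorsal ratio was larger for Nrp2 (1.30 against 0.23) and Pcdh8 (-1.15 against -0.30), but the difference between the comparisons was not tested.

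Over the 10 clusters of mature OSNs in 4 mice (40 points that share libraries), the non-receptor genes whose level ranked most like that of Calb2 among 8258 were the tetraspanin gene Cd81 (Spearman rho 0.871), Ppp3ca (0.849), the sodium channel gene Scn9a (0.834), Pard6b (0.809) and Lrrn2 (0.800). The most opposed were 5730403I07Rik (-0.823), Spred1 (-0.820), Hivep2 (-0.807), Ahcyl2 (-0.801) and Chgb (-0.794). These values describe the order of the clusters and carry no test.

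Receptor make-up, which the clustering did not use, separated Calb2+ D. from Dorsal. The 477 neurons expressed receptors of 79 of the 798 clustered populations, a population being the neurons that share a receptor identity, and 20 of the 79 had a single neuron there. The 10 largest held 188 neurons (39.4%). In 34 populations more than 50% of the neurons lay in Calb2+ D., and 15 of these lay there entirely. The 34 accounted for 344 of the 477 neurons (72.1%), and 86.6% of all their 397 neurons were in the cluster. By the same rule 132 populations belonged to Dorsal, and 55 populations had neurons in both. The share closest to the limit from above was that of Olfr1026 (55.6% of 9 neurons), and Olfr1030 lay at 50% of 26 and was in neither group.

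**Figure D3:**
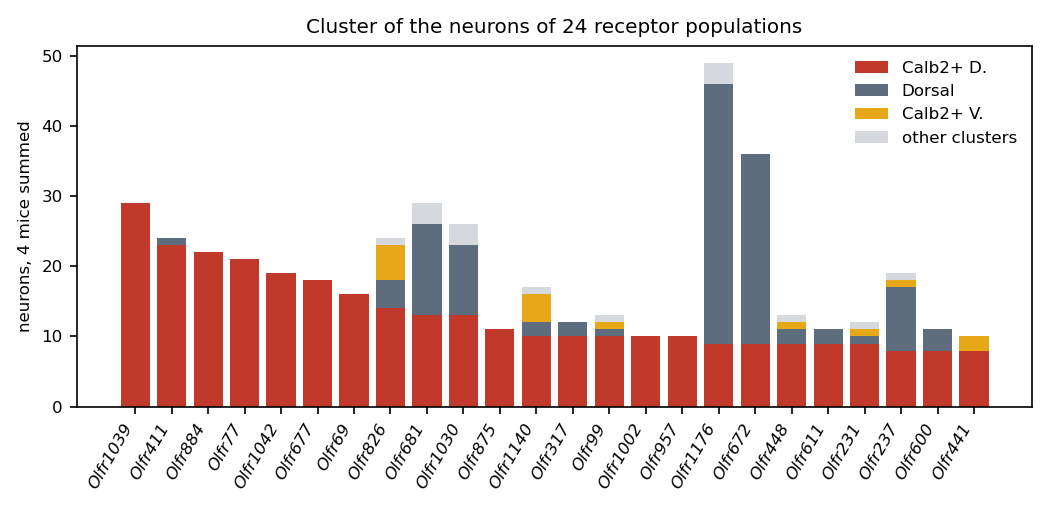
Number of neurons (vertical axis) of the 24 receptor populations with most neurons in Calb2+ D., stacked by cluster over 4 mice. Olfr1039 has 29 of 29 neurons in Calb2+ D., whereas Olfr681 has 13 there and 13 in Dorsal and Olfr1176 has 9 there and 37 in Dorsal.

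The receptors that define these populations are shown by the stretch of 60 bases around a motif that most odorant receptors share, at the start of the second cytoplasmic loop, on the coding strand. Positions are on GRCm38 and sequences are those of the GENCODE M21 annotation. Capitals mark bases that differ from Olfr1039, the largest population. Each stretch lies in the single coding exon of an intact receptor gene. The first 9 belong to Calb2+ D. populations and the last 2 to Dorsal ones.
Olfr1039 (chr2:86131266-86131325, minus strand): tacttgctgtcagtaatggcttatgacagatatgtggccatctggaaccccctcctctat
Olfr1042 (chr2:86159973-86160032, minus strand): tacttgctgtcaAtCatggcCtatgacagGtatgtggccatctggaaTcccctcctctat
Olfr411 (chr11:74347178-74347237, minus strand): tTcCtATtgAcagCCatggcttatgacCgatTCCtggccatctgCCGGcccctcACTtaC
Olfr884 (chr9:38047557-38047616, plus strand): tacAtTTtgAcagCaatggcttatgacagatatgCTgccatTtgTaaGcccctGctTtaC
Olfr77 (chr9:19920547-19920606, plus strand): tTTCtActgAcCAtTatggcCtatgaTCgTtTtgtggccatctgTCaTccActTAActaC
Olfr677 (chr7:105056590-105056649, plus strand): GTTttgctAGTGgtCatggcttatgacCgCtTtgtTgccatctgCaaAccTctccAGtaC
Olfr69 (chr7:103767994-103768053, minus strand): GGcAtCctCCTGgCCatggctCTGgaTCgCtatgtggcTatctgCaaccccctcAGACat
Olfr826 (chr10:130180474-130180533, minus strand): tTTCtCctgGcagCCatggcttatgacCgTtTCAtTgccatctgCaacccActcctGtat
Olfr875 (chr9:37772994-37773053, plus strand): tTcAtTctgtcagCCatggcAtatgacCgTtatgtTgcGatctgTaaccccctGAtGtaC
Olfr1361 (chr13:21658911-21658970, minus strand): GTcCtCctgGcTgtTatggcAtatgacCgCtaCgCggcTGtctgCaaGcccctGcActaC
Olfr1176 (chr2:88339906-88339965, plus strand): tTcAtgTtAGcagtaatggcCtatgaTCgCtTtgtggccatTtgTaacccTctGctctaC

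Olfr1042, whose gene lies 28.7 kb from that of Olfr1039, differed from it at 5 of the 60 bases. The other Calb2+ D. receptors shown differed at 13 (Olfr884) to 22 (Olfr69), and the Dorsal receptors Olfr1361 and Olfr1176 differed at 19 and 15, within that range. Near-identical receptors were also found on either side of the divide between both clusters. The coding sequence of Olfr69 was 97.5% identical to that of Olfr68, a population with 14 of its 17 neurons in Dorsal and 2 in Calb2+ D. Reads of such pairs can be shared out or lost when they are counted, so their values are uncertain. The stretch was the same in both genes, which the following lines show with Olfr875 and its neighbour Olfr874, where capitals mark bases differing from the first of each pair.
Olfr69 (chr7:103767994-103768053, minus strand): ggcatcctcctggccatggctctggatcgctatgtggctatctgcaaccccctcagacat
Olfr68 (chr7:103777942-103778001, minus strand): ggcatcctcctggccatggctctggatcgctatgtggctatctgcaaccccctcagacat
Olfr875 (chr9:37772994-37773053, plus strand): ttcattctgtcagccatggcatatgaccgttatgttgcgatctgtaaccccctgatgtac
Olfr874 (chr9:37746469-37746528, plus strand): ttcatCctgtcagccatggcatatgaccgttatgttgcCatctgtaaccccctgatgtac

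Olfr875 had 11 of 11 neurons in Calb2+ D. and Olfr874 had 9 of 10 in Dorsal, with coding sequences 95.6% identical. A further pair of this kind was Olfr611 (9 of 11 in Calb2+ D.) and Olfr612 (4 of 5 in Dorsal), at 97.5%. In contrast, Olfr1039 and Olfr1042 (88.0%) and Olfr441 and Olfr444 (93.4%) lay in Calb2+ D. together. Over all pairs, sequence identity was alike within and between the clusters: the median for class II receptors was 52.8% within Calb2+ D., 53.1% within Dorsal and 53.1% between them, and for class I receptors 53.7%, 53.6% and 53.7%. The receptor closest in sequence was another Calb2+ D. receptor for 10 of the 34, and for 12 of the 34 so was the nearest in position among the 166 receptors compared, of which 20% of the others were of Calb2+ D. For 2 of these 12, Olfr161 and Olfr19, that distance was 13081 kb. The 34 genes were spread over 9 chromosomes, with 8 each on chromosomes 7 and 9, 6 on chromosome 2 and 4 on chromosome 11. The identities and distances were described only, since receptors are not replicates of a condition.

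The numbers of neurons per population were tested with edgeR's quasi-likelihood test on the 85 populations with at least 8 neurons in both clusters together, with the mouse as block and the total of each cluster as offset. Of these, 22 (25.9%) were more frequent in Calb2+ D. and 13 (15.3%) less frequent at a Benjamini-Hochberg adjusted p of 0.05. Because Calb2+ D. held 477 neurons and Dorsal 1482, both counts are not directly comparable. Olfr444 was called with 8 neurons in Calb2+ D. and 0 in Dorsal, whereas Olfr609 was not with 0 and 15. Olfr1039 had 7, 12, 2 and 8 neurons in Calb2+ D. of mice 1 to 4 and none in Dorsal. Against the limit that a count of 0 allows, 3 neurons over the group, it was at least 30.03-fold higher (edgeR, adjusted p = 5.66e-11). Every mouse contributed to this population. Olfr884 had 4, 1, 4 and 13 neurons and none in Dorsal (at least 22.8-fold higher, edgeR adjusted p = 2.82e-10). Olfr77 had 11, 2, 3 and 5 and none in Dorsal (at least 21.7-fold higher, edgeR adjusted p = 7.54e-10).

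Olfr411 had 23 of its 24 neurons in Calb2+ D., with 7, 6, 2 and 8 over the mice, and 1 in Dorsal (edgeR, adjusted p = 1.95e-09). Olfr1042 had 19 neurons in Calb2+ D. and none in Dorsal (at least 19.7-fold higher, edgeR adjusted p = 3.16e-09). The class I receptors Olfr677 and Olfr69 likewise had 18 and 16 neurons in Calb2+ D. and none in Dorsal, at least 18.6-fold and 16.6-fold higher (edgeR, adjusted p = 1.17e-08 and 1.33e-07). These 7 populations held their call in each alternative fit. Olfr826 was spread further, with 14 neurons in Calb2+ D., 4 in Dorsal and 5 in Calb2+ V. (10.9-fold higher than in Dorsal, edgeR adjusted p = 0.00026). Olfr681 and Olfr1030 were called although they had many Dorsal neurons, 13 and 10 beside 13 each in Calb2+ D. (3.11-fold and 4.04-fold, edgeR adjusted p = 0.037 and 0.0104). The call of Olfr681 was lost in 8 of 10 alternative fits, with an edgeR or DESeq2 adjusted p of up to 0.258, and that of Olfr1030 in 4 of 10, up to 0.31.

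The population most frequent in Dorsal, Olfr1361, had 5, 10, 13 and 18 neurons there and none in Calb2+ D. (at least 4.94-fold lower, edgeR adjusted p = 0.00255). Olfr689 (31 Dorsal neurons), Olfr655 (30), Olfr661 (29), Olfr446 (26) and Olfr591 (23) also had none in Calb2+ D. and were lower by at least 3.33, 3.22, 3.11, 2.79 and 2.47-fold. Olfr24 and Olfr969, with 19 Dorsal neurons each, were at least 2.04-fold lower. Olfr552 had 1 neuron in Calb2+ D. and 28 in Dorsal. With a mouse left out, 53 to 67 populations reached 8 neurons, and these counts moved. Without mouse 1 there were 11 more frequent populations and without mouse 4 there were 9, while the less frequent ones numbered 1 without mouse 3 and 5 without mouse 4. With TMM scaling the split was 16 and 19 in place of 22 and 13, and DESeq2 called 14 and 1.

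Class I receptors, whose genes form 1 cluster on chromosome 7, were identified in 27.9%, 24.3%, 26.7% and 16.7% of Calb2+ D. neurons of mice 1 to 4 and in 36.2%, 36.6%, 29.8% and 27.2% of Dorsal neurons. The share was lower in Calb2+ D. in 4 of 4 mice, and the ranges overlapped only between 27.2% and 27.9%. The means were 23.9% ± 5.04 and 32.4% ± 4.67, a difference of -8.55 percentage points ± 3.96. The exact two-sided sign-flip permutation test gave a p of 2 in 16 sign patterns, the smallest that 4 mice allow, and p = 0.375 after adjustment over 3 measures. Counted by populations, 7 of the 34 Calb2+ D. receptors and 33 of the 132 Dorsal receptors were of class I. With each population counted once per mouse, in the cluster that held most of its neurons, the difference in share was -1.44 percentage points (exact permutation p = 0.625).

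No difference was detected in the level of the receptor itself. The mean level of the identity receptor was 96.1, 99.4, 105 and 89.7 UMIs per 10000 in Calb2+ D. and 97.2, 103, 99.6 and 103 in Dorsal, with a mean log2 difference of -0.05 ± 0.11 (lower in 3 of 4 mice, exact permutation p = 0.625, adjusted 0.625). The groups overlapped, and the sign of the difference turned in other settings. A second receptor was detected in 18.5% ± 6.28 of Calb2+ D. and 17.7% ± 4.34 of Dorsal neurons after thinning to 3000 UMIs, a difference of 0.762 percentage points ± 5.70 (exact permutation p = 0.625, adjusted 0.625). The unthinned shares were 30.8% and 25.3%, a difference of 5.49 percentage points (exact permutation p = 0.25). Microvillar cells of the type Mv2, which should hold no receptor, had at least 1 receptor UMI in 17.7% ± 3.64 of cells after thinning. The thinned second-receptor shares were close to this value. The authors had left out neurons with a second receptor above their limit, so low shares were partly set in advance. What the remaining second receptors are was not tested.

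Levels summed by receptor also varied inside the cluster. Whether they varied more than small groups of neurons would by sampling was not tested. For Calb2, single Calb2+ D. neurons ran from 11.9 at the 10th percentile to 51.7 at the 90th. Counting only neurons that lay in the cluster, 25 receptors had at least 8 neurons in Calb2+ D. and 57 in Dorsal, with 5 of them in both. The Calb2 level ran from 16.6 in Olfr1030 to 47.7 UMIs per 10000 in Olfr1002 across the 25, with a median of 29.4. Across the 57 in Dorsal it ran from 0 to 4.95, with a median of 0.215, so the ranges did not overlap. S100a5 ran from 0.681 in Olfr441 to 38.4 in Olfr672 (median 5.84) against 19.5 to 467 (median 147). For S100a5 some overlap was seen, since 3 of the 25 lay at or above the lowest value in Dorsal and 2 of the 57 lay at or below the highest in Calb2+ D. Nqo1 overlapped widely, at 22.0 to 51.0 against 0.624 to 45.9. These genes were part of the clustering, so the ranges are descriptions.

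**Figure D4:**
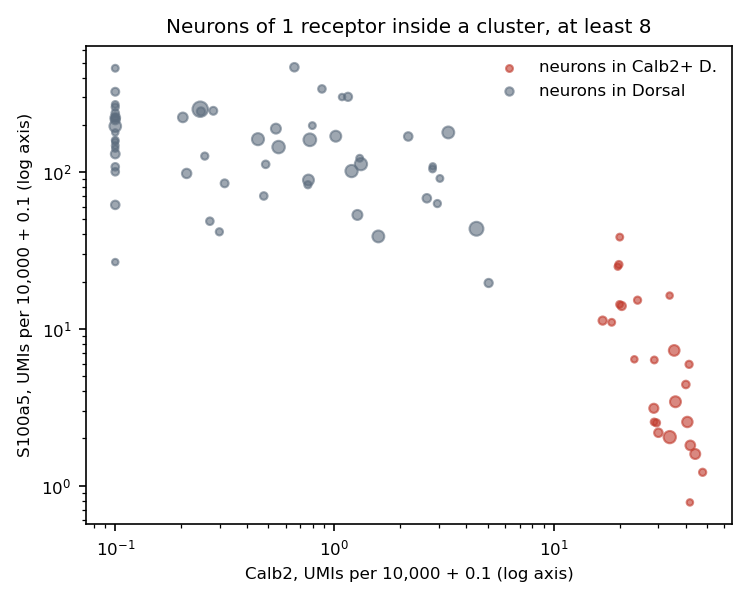
Calb2 (horizontal) and S100a5 (vertical) in UMIs per 10000 plus 0.1, on log axes, for neurons of 1 receptor inside a cluster, 25 receptors in Calb2+ D. and 57 in Dorsal with at least 8 neurons each; the area of a point grows with its number of neurons. The 2 groups are apart along Calb2 and touch along S100a5.

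Receptors whose neurons had more Calb2 had less S100a5 in both clusters. With the neurons inside each cluster alone, Spearman's rho was -0.77 over the 25 receptors of Calb2+ D. and -0.35 over the 57 of Dorsal, where many had no Calb2 UMI. With every neuron of a population counted, it was -0.52 over 23 populations and -0.69 over 63, so which cluster had the larger value turned with the way of counting. S100a5 and Pcp4l1 had a rho of 0.56 in Calb2+ D. and 0.78 in Dorsal inside the clusters, and 0.35 and 0.77 over whole populations. Calb2 and Kirrel3 had 0.35 and 0.11 inside the clusters, and 0.48 and 0.24 over whole populations. The points share 4 libraries and rest on few neurons each, the clustering used these genes, and no test was made. The neurons of Olfr1002 and Olfr1042, with Calb2 at 47.7 and 44.2, had S100a5 at 1.12 and 1.49. Those of Olfr99 and Olfr448 in the cluster, with Calb2 at 19.8 and 19.9, had S100a5 at 25.6 and 14.2. After thinning, an S100a5 UMI was found in 26.5% ± 5.51 of Mv2 cells and in 60.4% ± 4.06 of Calb2+ D. neurons. How far the lowest S100a5 levels lie above a background was not tested.

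Some populations were divided between both clusters. In Olfr681, whose 29 neurons comprised 13 in each cluster, Calb2 was at 20.4 UMIs per 10000 in the Calb2+ D. neurons and 4.95 in the Dorsal ones, and S100a5 at 13.9 and 19.5. In Olfr1030 the Calb2 levels were 16.6 and 2.85, with S100a5 at 11.2 and 62.9. In Olfr672, a population mostly in Dorsal, Calb2 was at 19.9 and 1.49 while S100a5 was at 38.4 and 38.8. The Dorsal neurons of Olfr681, Olfr1030, Olfr1176 (4.35) and Olfr237 (2.93) therefore had more Calb2 than the Dorsal median of 0.215. The clusters divide these neurons by the very genes compared, so the values describe where the division falls.

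Immature neurons gave a measurement that the clustering had not used. Of 1006 cells of the late immature type iOSN2, 973 had a receptor call. The receptor was one of the 34 Calb2+ D. receptors in 27 of them (8, 3, 7 and 9 cells over mice 1 to 4, 18 receptors) and one of the 132 Dorsal receptors in 90 (25, 12, 28 and 25 cells, 58 receptors). UMI sums per mouse were compared over 1492 genes with edgeR's quasi-likelihood test and the mouse as block. At a Benjamini-Hochberg adjusted p of 0.05, 2 genes were higher (0.134%) and 5 lower (0.335%) in immature neurons with a Calb2+ D. receptor. Of the 12 genes past the fold in mature neurons that could be measured here, 12 had the same direction (6 higher and 6 lower) and 6 were called, 2 upwards and 4 downwards. A gene could pass the filter on expression through the group where it was higher, so the agreement in direction is a description and no test. Among all 1492 genes, 787 had a fold change above 0.

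S100a5 was at 13, 2.78, 4.18 and 43.9 UMIs per 10000 in immature neurons with a Calb2+ D. receptor and at 82.9, 57.2, 46.6 and 79.4 in those with a Dorsal receptor. The groups did not overlap, although mouse 4 came close, and the log2 fold change was -2.38 ± 0.31 (SE, edgeR adjusted p = 0.000306). Pcp4l1 was at 0.360, 0.464, 0 and 1.01 against 5.35, 2.57, 2.65 and 4.14 (log2 fold change -3.18 ± 0.40, edgeR adjusted p = 0.000306). Kirrel2 was at 0.720, 0.464, 0.866 and 2.01 against 3.10, 2.81, 3.43 and 4.94 (-1.76 ± 0.27, edgeR adjusted p = 0.0018). These genes were therefore lower in 4 of 4 mice.

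The other lower genes were 5730403I07Rik (log2 fold change -2.67 ± 0.41) and Selenom, a selenoprotein of the endoplasmic reticulum (-1.41 ± 0.22), each with an edgeR adjusted p of 0.0018. Selenom was at 1.71 to 2.35 UMIs per 10000 in mature Calb2+ D. neurons and 2.54 to 3.05 in Dorsal ones, a log2 ratio of -0.49 ± 0.29 that was not past the fold. The 5 lower genes were called in every alternative fit in which they were measured.

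Calb2 was at 47.2, 50.1, 39.4 and 41.1 UMIs per 10000 in immature neurons with a Calb2+ D. receptor and at 26.2, 23.6, 30.9 and 25.5 in those with a Dorsal receptor. The groups did not overlap, and the log2 fold change was 0.73 ± 0.12 (SE, edgeR adjusted p = 0.00277). Both groups of immature neurons were thus far above the 0.871 of mature Dorsal neurons. Rims3 was at 1.80, 1.39, 2.02 and 2.62 against 0.422, 0.611, 0.530 and 0.508 (1.98 ± 0.34, edgeR adjusted p = 0.00344). Neither call held without each mouse. Without mouse 1 the adjusted p was 0.0817 for both genes, and without mouse 4 it was 0.062 for Calb2 and 0.0806 for Rims3. For Calb2 the adjusted p was 0.316 when receptors needed at least 75% of their neurons in a cluster, over alternatives that spanned 0.000228 to 0.316.

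Other named genes did not pass. Gap43 was at 7.20 to 21.3 UMIs per 10000 against 6.01 to 8.07 (log2 fold change 0.73 ± 0.17, edgeR adjusted p = 0.0684). Nqo1 had a log2 fold change of 0.33 ± 0.15 and Ppp3ca of 0.35 ± 0.21 (edgeR, adjusted p = 0.625 and 0.684). General markers of immaturity had a higher mean in cells with a Calb2+ D. receptor, and their ranges overlapped. Gap43 was higher in 4 of 4 mice, and the immature list and Gng8 in 3 of 4 each. The summed level of the immature list was 93.7 to 177 in cells with a Calb2+ D. receptor and 102.1 to 109 in the others, and Gng8, a G-protein subunit of immature neurons, was at 0.540 to 4.83 against 0.0707 to 0.985. Omp was at 38.1 to 44.8 against 40.5 to 48.6. The part of maturity in the called differences was not tested, and the sums of Calb2+ D. receptors rest on as few as 3 cells in mouse 2.

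**Figure D5:**
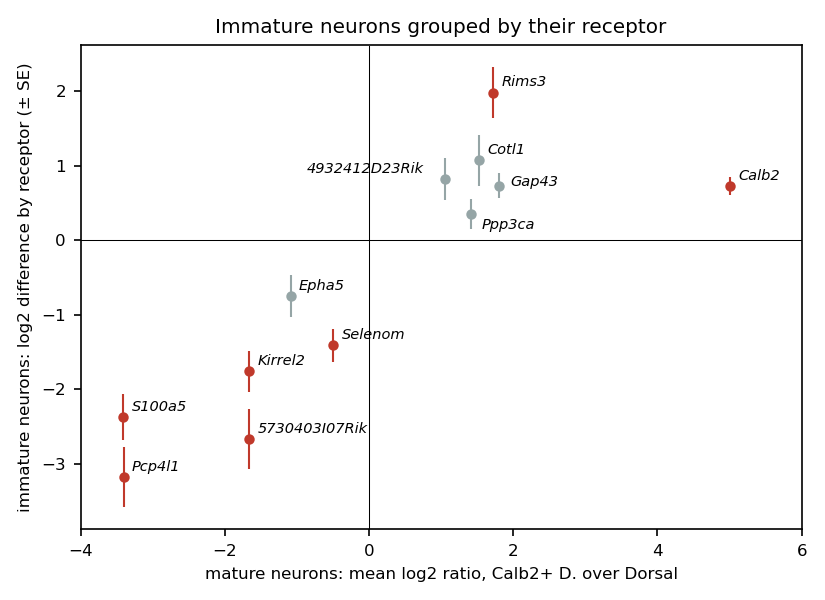
Log2 fold change in immature neurons by the cluster of their receptor (vertical axis, bars are standard errors) against the mean log2 ratio in mature neurons (horizontal axis) for Selenom and 11 of the 12 genes past the fold in mature neurons that were measured in both; red marks an adjusted p under 0.05. The 11 genes lie in the quadrants of equal sign, and Calb2 lies at 5.01 in mature and 0.73 in immature neurons.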

How the data were processed

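Cells of 4 mice, 1 library each, were profiled by 10x Genomics 3′ RNA-seq. The authors aligned reads with Cell Ranger 6.0.1 to GRCm38 with an annotation whose receptor 3′ ends they had redrawn, and deposited raw UMI counts per gene and cell. The deposited cell table gives the cluster, the receptor identity and the percent of mitochondrial UMIs, with a ratio of UMIs to genes that the authors computed and that was not needed here. Clusters were taken from it and not derived again. The authors kept cells under 10% mitochondrial UMIs with at least 1000 genes and gave each neuron 1 receptor identity, leaving out neurons with a second receptor above their limit. No doublet caller was run, and neurons with exactly 1 receptor detected served as an alternative.

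Raw counts were summed per mouse and cluster. Levels are UMIs per 10000 of all UMIs, and log2 ratios add 0.05. SDs are over mice. Levels by receptor use only neurons inside the cluster, a choice made after seeing the data. Counts of neurons and UMI sums of immature neurons were tested in edgeR 4.0.16 (R 4.3.3) with Benjamini-Hochberg adjustment, the second with TMM and filterByExpr. An iOSN2 cell was given its highest receptor if this had at least 3 UMIs and more than 50% of its receptor UMIs, and a sum needed at least 3 cells. DESeq2 1.42.0 was an alternative. Single measures used exact sign-flip permutations in Python 3.11.15 with scipy 1.17.1. Samples were paired within the mouse, since each animal and its library gave both clusters, and the models held the mouse as a block term. Deviations of the same mouse correlated at 0.313 to 0.671 over 1796 genes, and those of different mice at up to 0.263. The scripts were tested on simulated data.

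Gene positions and coding sequences came from GENCODE M21 on GRCm38, and all 166 receptors compared had a coding sequence. They were aligned with MAFFT 7.526, and the 60-base stretch was found in 135. Columns of per-sample values not mapped to a sample numbered 0.

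Named genes were Calb2, Nqo1, the 15 genes with the highest and the 15 with the lowest ratio past the fold, list genes past the fold, the largest and the called receptor populations, the called immature genes and the 5 genes most like Calb2. A few values of named genes are not reported here. The neurons, gene lists and tests were chosen with earlier results of these data known. Alternatives were other references, pseudocounts, filters, thinning, scalings and tools, no block, and each mouse left out.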

Additional observations from a re-analysis of the deposited data

Results flagged for a closer look

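Of 98 groups of 4 mouse values of named genes, 2 held a mouse far from the others by Dixon's 95% limit, and chance gives about 1 in 20. The level of Lrrc3b in Calb2+ D. neurons was 0.536 UMIs per 10000 in mouse 2 and 0.284 to 0.303 in the other mice. The level of S100a6 in Calb2+ D. neurons was 0.144 in mouse 2 and 0.0535 to 0.0634 in the others. The cluster held 473399 to 843632 UMIs per mouse, so these S100a6 levels rest on few UMIs and counting error is large.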

How the results depend on the processing

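The cluster's share was 17.4% when only the 5 dorsal clusters were counted 4.75% to 5.27% with a mouse left out, and 5.12% by the clusters made with receptor genes, an alternative chosen after seeing the data. Higher genes past the fold numbered 11 after thinning to 3000 UMIs and 14 to 16 with a mouse left out, and lower ones 89 against the other 4 dorsal clusters together and 34 to 40 with a mouse left out. Pcdh11x turned to -0.0456 against those 4 clusters. More frequent receptor populations numbered 14 with DESeq2, 10 with at least 15 neurons, 12 in neurons with exactly 1 receptor detected and 9 to 18 with a mouse left out. Less frequent ones numbered 26 with no replicate block, 1 with DESeq2, 3 with exactly 1 receptor and 1 to 16 with a mouse left out. Without a filter beyond 1 count, 5 genes were higher and 13 lower in immature neurons with a Calb2+ D. receptor, and with a mouse left out 0 to 4 and 5 to 8. With no replicate block these stayed at 2 and 5. The log2 difference in receptor level turned to 0.0534 with medians over neurons and to 0.00492 with exactly 1 receptor, and lay between -0.0868 and 0.00335 with a mouse left out. With a mouse left out, the difference in second receptors lay between -1.58 and 3.08 percentage points and that in class I between -10.4 and -7.31. The first was 5.49 without thinning and 5.18 at 5000 UMIs, and the second -1.44 by receptor populations. The causes were not tested, apart from the fewer populations, genes or mice that some alternatives hold. Of 407 alternative values of 37 named genes past the fold in mature neurons, 380 kept a size of at least 1 and 27, of 12 genes, did not. That count asked for neither the same sign in every mouse nor the minimum of 100 UMIs. By the full rule more calls were lost. Those of Arpp21, Pcdh11x, Ntf3 and S100a3 were lost whichever mouse was left out. Gm3896 was not among the 37 genes. For receptor populations 223 of 303 values, and in immature neurons 126 of 138, kept their direction and side of the threshold. The smallest p of 4 mice in an exact test is 2 in 16, and 27 immature neurons with a Calb2+ D. receptor limit what could be detected there.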
